A study of Homo sapiens with 8 samples.

Results

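Genes whose expression moved the same way with Pao extract in BPH-1 as well as in WPMY-1 cells were looked for by setting all 4 arrays of treated cells against all 4 arrays of vehicle-treated cells in 1 model, with the cell line as a block. The 4 groups, of 2 arrays each, were BPH-1 cells with 250 μg/ml Pao extract, WPMY-1 cells with 250 μg/ml Pao extract, BPH-1 cells with vehicle and WPMY-1 cells with vehicle, all labelled as treated for 48 h. Pao extract is the bark extract of the Amazonian tree *Geissospermum vellosii*. BPH-1 is an immortalised epithelial line from a human prostate with benign hyperplasia, and WPMY-1 is an immortalised human prostate myofibroblast line, so that each compartment of the gland is represented by 1 line. Whether paired arrays of 1 group stem from different cultures is not stated, and the p-values therefore reflect array-to-array spread that could be technical in origin. Of the 22465 genes tested, 10331 (46.0%) had a mean difference of the same sign in both lines, and for 1478 of them the Pao extract arrays also lay wholly on 1 side of the vehicle arrays in each line. The share with the same sign was 47.4% with each array centred on its median and 49.0% after a further quantile normalization. Every array value is an RMA log2 level, and every difference is the mean log2 level with Pao extract minus that with vehicle. Where a gene has a pair of differences, that of BPH-1 cells stands before that of WPMY-1 cells.

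The array values fitted the labelled lines. Epithelial markers had a median log2 level of 8.62 to 8.69 on the BPH-1 arrays and of 5.50 to 5.71 on the WPMY-1 arrays, and stromal markers of 5.38 to 5.51 on the BPH-1 arrays and 6.23 to 6.49 on the WPMY-1 arrays. A log2 level of 5.38, the upper quartile of 28 leukocyte and nervous system markers that neither line should express, was taken as background, and 12338 genes lay above it in both lines. Arrays within 1 group correlated at r of 0.995 to 0.997, and their number, rather than a read depth, limits the precision. An exact permutation of the 8 arrays within the lines cannot give a two-sided p below 0.0556, so single genes were tested with limma across all genes.

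Cells make cholesterol from acetyl units through the mevalonate pathway, and fatty acids from the same units through a second route. Both routes are controlled by the SREBP transcription factors, which INSIG and SCAP hold in the endoplasmic reticulum when sterol is plentiful and release for processing when it is scarce. Lysosomes hand cholesterol from internalised lipoprotein back to the cell, and their genes are in part read by the factors TFEB and TFE3. In the prostate, stroma and epithelium also exchange chemokines, growth factors and matrix components such as hyaluronan, which are known parts of the hyperplastic gland.

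In both lines, genes of cholesterol and fatty acid synthesis were higher with Pao extract, and the hyaluronan synthase gene *HAS2* was lower, each in a fit that pairs the arrays by repeat number and not in the fit without it. At the threshold of an adjusted p of 0.05 from limma, 0 genes were higher and 0 lower in the pooled comparison (0% of the genes tested in either direction), and the lowest adjusted p was 0.0731. At an unadjusted p under 0.05 from limma, 859 genes (3.82%) were higher and 651 (2.9%) lower. Without BPH-1 Pao extract replicate 2, 16 genes were higher and 0 lower at an adjusted p of 0.05 from limma. With the repeat number of the arrays as a block within each line, 19 genes (0.0846%) rose and 3 (0.0134%) fell at an adjusted p of 0.05 from limma, with a lowest adjusted p of 0.00594. Those that rose in this blocked fit were *HMGCS1*, *INSIG1*, *MSMO1*, *ACAT2*, *SCD*, *DHCR7*, *CYP51A1*, *FDPS*, *IDI1*, *MCOLN3*, *NPC1*, *SC5D*, *KLHL24*, *STX3*, *IDH1*, *SQLE*, *OGFRL1*, *RRAGC* and *ORAI3*, and those that fell were *HAS2*, *NRG1* and *ALDH1A3*. All 22 moved the same way in both lines, all 22 lay above background in both, and the arrays did not overlap in either line for 21 of them. On the 3 lists of sterol synthesis, sterol sensing and transport, and fatty acid synthesis stood 13 of the 22. These lists had 20, 14 and 20 measured members, in that order, among the 22465 genes tested. They were chosen with earlier results of these data known, so the count describes the calls and is not an independent test.

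Genes below 1.4-fold in at least 1 line came from the blocked fit and from a looser threshold, since the pooled comparison called none. At 1.4-fold or more in both lines, 20 genes (0.089%) were higher and 1 (0.00445%) was lower, and 14 of the 20 stood on the lipid lists. The sizes and the choice of these lists, given above, bear on this count too. Leaving out 1 array at a time gave 13 to 25 higher and 1 to 7 lower, with 13 and 7 without BPH-1 Pao extract replicate 1. Of the 22 genes called in the blocked fit, 7 were below 1.4-fold in at least 1 line, namely *NPC1*, *RRAGC*, *SQLE*, *OGFRL1*, *ORAI3*, *NRG1* and *ALDH1A3*. Without the block, 29 genes had an adjusted p under 0.10 from limma (26 higher and 3 lower), all with arrays that did not overlap in either line, and 15 of them were below 1.4-fold in at least 1 line. Those 15 were *SREBF2*, *NPC1*, *ERG28*, *STARD4*, *WIPI1*, *GNE*, *MMAB*, *RAB5B*, *ANP32D*, *HERC5*, *GPR37*, *BEX4* and *IFIH1*, which were higher, and *CXCL6* and *PAPPA*, which were lower. *ANP32D*, *HERC5*, *GPR37*, *BEX4* and *IFIH1* lay below background in 1 line or in both. The 2 sets, 22 and 29 genes, had 13 genes in common.

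**Figure D1:**
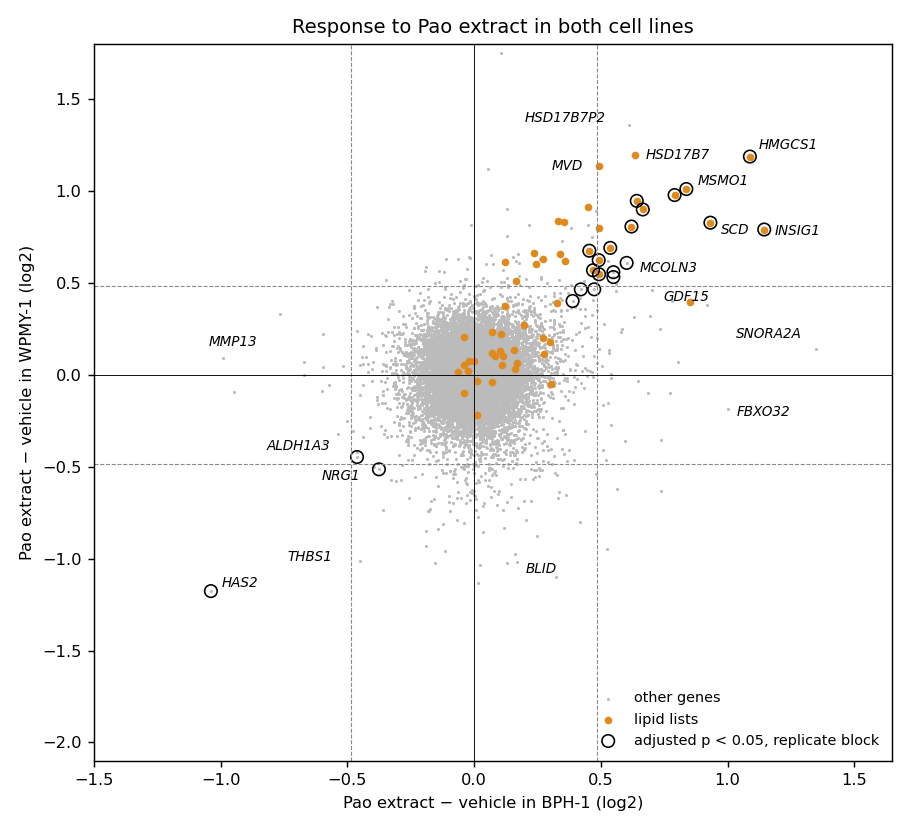
Difference between Pao extract and vehicle (log2) in BPH-1 cells on the horizontal axis and in WPMY-1 cells on the vertical axis, 1 point per gene, with members of the 3 lipid lists in orange and the 22 genes called with the replicate block ringed. Dashed lines mark 1.4-fold, and the orange points reach into the upper right corner, where 20 genes lie beyond both lines, while *HAS2* stands alone in the lower left.

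*HMGCS1*, the synthase that commits acetyl units to the mevalonate pathway, had the largest pooled difference of all genes. Its log2 level was 8.67 and 8.03 in BPH-1 cells with Pao extract, against 7.42 and 7.11 with vehicle, and 9.20 and 9.39 in WPMY-1 cells with Pao extract, against 7.94 and 8.27 with vehicle. The groups did not overlap in either line, and the pooled difference was 1.14 (standard error, SE, 0.14, 2.2-fold, adjusted p = 0.0731 from limma and 0.00594 with the block). *MSMO1*, an oxidase that helps strip methyl groups off sterols, had log2 levels of 8.55 and 8.20 with Pao extract, against 7.70 and 7.38 with vehicle, in BPH-1 cells. WPMY-1 cells gave 9.45 and 9.50 with Pao extract, against 8.35 and 8.58 with vehicle. Both lines again separated fully, with a pooled difference of 0.92 (SE 0.10, adjusted p = 0.0731 from limma and 0.00636 with the block). *SCD*, which puts the double bond into saturated fatty acids, read 11.16 and 10.83 with Pao extract, against 10.25 and 9.88 with vehicle, in BPH-1 cells, and 11.16 and 11.48 with Pao extract, against 10.53 and 10.46 with vehicle, in WPMY-1 cells. No arrays of the groups overlapped, the differences were 0.93 and 0.83, and the pooled value of 0.88 had an SE of 0.11 (adjusted p = 0.0731 from limma and 0.011 with the block).

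Most measured genes of the sterol pathway were higher. Of the genes of sterol synthesis, 20 were measured, and all 20 lay above background and had a positive pooled difference (19 with each array centred on its median), and 17 had higher Pao extract arrays without overlap in both lines, against 3.98% of all genes. The same 17 had an unadjusted p under 0.05 from limma, against 3.82% of all genes. In the blocked fit 9 rose, against 0.0846% of all genes, and 10 were past 1.4-fold in both lines, against 0.089%. The median pooled difference was 0.60 over the list and 0.01 over all genes. Along the pathway, the differences in BPH-1 and WPMY-1 cells were 0.79 and 0.98 for *ACAT2*, which joins the first acetyl units, 0.17 and 0.51 for mevalonate kinase *MVK*, 0.49 and 1.14 for the decarboxylase *MVD*, and 0.62 and 0.81 for *FDPS*, which builds farnesyl diphosphate. Past squalene they were 0.47 and 0.57 for *SQLE*, 0.45 and 0.91 for the cyclase *LSS*, 0.67 and 0.90 for *CYP51A1*, 0.63 and 1.2 for *HSD17B7*, and 0.64 and 0.95 for *DHCR7*, which closes the route. The 3 measured members without separate arrays were *LBR* (-0.04 and 0.05), *PMVK* (-0.04 and 0.20) and *GGPS1* (0.16 and 0.03), of which *GGPS1* leads away from cholesterol to geranylgeranyl groups. In 19 of the 20 the difference was larger in size in WPMY-1 than in BPH-1 cells, although no gene passed the test of a difference between the lines.

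The genes that sense and move sterol were higher in part. *INSIG1*, which retains SCAP and is itself switched on by SREBP, read 8.33 and 7.59 with Pao extract, against 6.91 and 6.71 with vehicle, in BPH-1 cells. The WPMY-1 levels were 9.32 and 9.58 with Pao extract, against 8.50 and 8.82 with vehicle. Its arrays separated in both lines, and its pooled difference was 0.97 (SE 0.16, adjusted p = 0.105 from limma and 0.0494 with the block). *SREBF2*, the SREBP gene of the sterol branch, differed by only 0.33 in BPH-1 cells and by 0.39 in WPMY-1 cells, with log2 levels of 7.11 and 7.04 with Pao extract, against 6.76 and 6.74 with vehicle, in BPH-1 cells, and of 7.61 and 7.59 with Pao extract, against 7.17 and 7.24 with vehicle, in WPMY-1 cells. The arrays of each group lay close together and did not overlap with those of the other, and the adjusted p was 0.0732 from limma and 0.0524 with the block. *NPC1*, the lysosomal exporter of cholesterol, differed by 0.45 and 0.68 (adjusted p = 0.0732 from limma and 0.0494 with the block), and *STARD4*, a carrier of sterol between membranes, by 0.85 and 0.40 (adjusted p = 0.088 from limma and 0.101 with the block). Of the 14 measured members of this list, 7 had higher, separate arrays in both lines, against 3.98% of all genes, and none lower, with a median of 0.16.

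Of 20 measured genes of fatty acid synthesis and desaturation, 10 had higher, separate arrays in both lines (against 3.98% of all genes) and none lower. An unadjusted p under 0.05 from limma was met by 11 (against 3.82% of all genes), and 2, *SCD* and *IDH1*, rose in the blocked fit (against 0.0846% of all genes). *FASN*, fatty acid synthase, differed by 0.49 in BPH-1 cells and by 0.80 in WPMY-1 cells, and *ACSS2*, which activates acetate, by 0.35 and 0.83. *IDH1*, the cytosolic isocitrate dehydrogenase that yields NADPH, read 8.29 and 8.03 with Pao extract, against 7.74 and 7.60 with vehicle, in BPH-1 cells. WPMY-1 cells gave 8.00 and 8.04 with Pao extract, against 7.41 and 7.54 with vehicle. Its groups did not overlap, and the differences were 0.49 and 0.55 (adjusted p = 0.0732 from limma and 0.0181 with the block). *ACLY* (0.27 and 0.20) and *ACACA* (0.30 and 0.18), which supply cytosolic acetyl units and malonyl units, were separate in both lines at a smaller size.

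**Figure D2:**
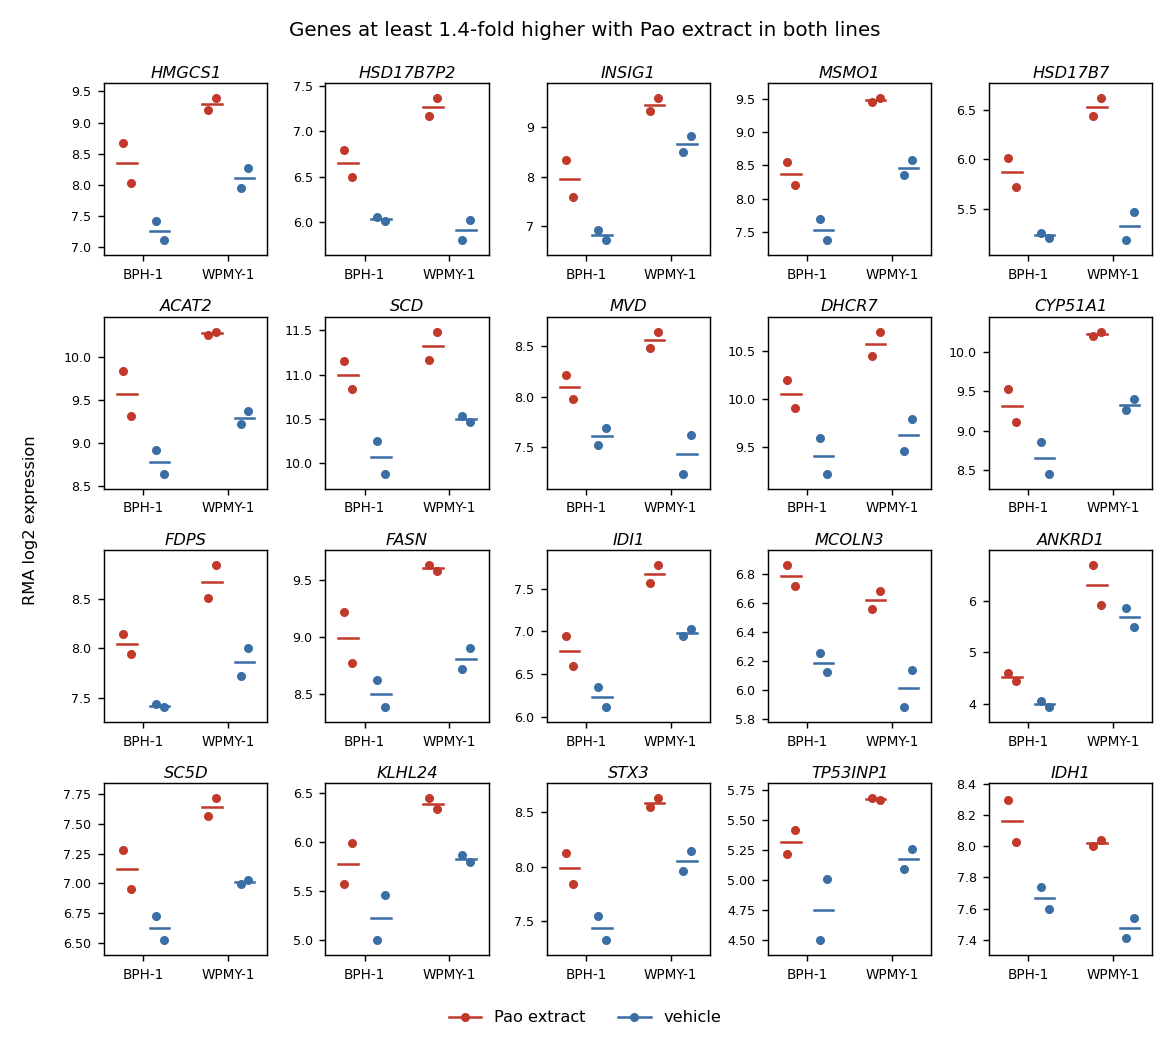
RMA log2 level on each of the 8 arrays for the 20 genes at least 1.4-fold higher in both lines, with Pao extract in red left of vehicle in blue for each line and a bar at each group mean. In all 20 the 2 red points lie above the 2 blue points of the same line, and *ANKRD1* and *TP53INP1* lie near or below the background of 5.38 in BPH-1 cells.

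Promoters of the genes that moved together were read from RefSeq sequence of GRCh38.p14 over 250 bases before the start, on both strands. The table held a promoter for 18 of the 20 sterol synthesis genes and for 16 of the 20 genes past 1.4-fold in both lines. The CCAAT motif is the site of NF-Y, a known partner of SREBP. It was present in 13 of the 18 (72.2%) and 10 of the 16 (62.5%), 2 sets that share members. It was in 34.4% of the 15247 promoters of tested genes and 33.0% of all 27305. High shares were not particular to these sets. The motif was also in 4 of 6 promoters (66.7%) of the 10 lower genes named by size. On the ATF4 and integrated stress response list it was in 16 of 28 (57.1%). The lysosome list had it in 5 of 23 (21.7%) and the NFκB target list in 9 of 36 (25.0%). The sterol response motif TCACNCCAC was in 0 of the 18 and in 0.892% of promoters of tested genes, which says only that these letters were not in those windows. Outside that list it was in the promoters of *SREBF2*, *ALDOC* and *CCNG1*, with positive pooled differences, and of *TIPARP*, with a negative one. *INSIG1* and *HSD17B7* had larger pooled differences than *SCD* and *MVD*, but their CCAAT windows held 1 match each and are not shown. The following windows are examples from genes past 1.4-fold in both lines, each with more than 1 match. CCAAT, or its complement ATTGG, is in capitals.
HMGCS1: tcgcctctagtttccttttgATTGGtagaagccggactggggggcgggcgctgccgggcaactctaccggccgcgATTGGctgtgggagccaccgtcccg
MSMO1: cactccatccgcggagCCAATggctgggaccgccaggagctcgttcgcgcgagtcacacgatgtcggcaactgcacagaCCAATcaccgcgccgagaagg
SCD: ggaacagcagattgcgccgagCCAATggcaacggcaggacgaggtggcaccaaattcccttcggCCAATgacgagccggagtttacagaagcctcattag
MVD: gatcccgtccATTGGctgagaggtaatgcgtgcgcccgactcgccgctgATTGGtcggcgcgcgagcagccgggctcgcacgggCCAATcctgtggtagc
They lie at chr5:43313488-43313587 on the minus strand, chr4:165327514-165327613 and chr10:100346983-100347082 on the plus strand and chr16:88663161-88663260 on the minus strand, and hold 2, 2, 2 and 3 matches.

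Some genes outside lipid synthesis rose in the blocked fit with nearly equal differences in both lines. *MCOLN3*, a calcium channel of endosomes and lysosomes, read 6.86 and 6.72 with Pao extract, against 6.26 and 6.12 with vehicle, in BPH-1 cells, and 6.56 and 6.69 with Pao extract, against 5.89 and 6.14 with vehicle, in WPMY-1 cells. Its difference was 0.60 and 0.61, its arrays separated in both lines, and it had an adjusted p of 0.0731 from limma (0.0109 with the block), the only gene off the lipid lists among those at the lowest value. *STX3*, a syntaxin of membrane fusion, differed by 0.55 and 0.53 (adjusted p = 0.088 from limma and 0.011 with the block). *KLHL24*, a Kelch-like protein and FOXO target, read 5.57 and 5.99 with Pao extract, against 5.00 and 5.46 with vehicle, in BPH-1 cells, so that its lower Pao extract array lay just above its higher vehicle array. In WPMY-1 cells it read 6.44 and 6.33 with Pao extract, against 5.86 and 5.79 with vehicle, and its adjusted p of 0.204 from limma was 0.0109 with the block. *RRAGC*, a Rag GTPase that ties lysosomal amino acids to mTORC1, differed by 0.42 and 0.46, *OGFRL1* by 0.47 and 0.47, and the calcium channel subunit *ORAI3* by 0.39 and 0.40, with adjusted p of 0.0382, 0.0494 and 0.032 with the block and of 0.193, 0.312 and 0.473 from limma without it. *HSD17B7P2*, a pseudogene whose probes may read *HSD17B7* RNA, differed by 0.61 and 1.36, so it may not be a separate measurement.

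Below 1.4-fold in at least 1 line, but at least 1.3-fold in both, above background and with separate arrays, lay 16 further genes that were higher with Pao extract. They were *NPC1*, *STARD4*, *LSS* and *SQLE* of the lipid lists, and *WIPI1*, *MMAB*, *SLC17A5*, *ABHD4*, *NEU1*, *RRAGC*, *OLMALINC*, *NCR3LG1*, *ALDOC*, *OGFRL1*, *GDF15* and *ORAI3*. *MMAB*, an enzyme of cobalamin metabolism that shares a promoter region with mevalonate kinase, differed by 0.46 and 0.75. *SLC17A5*, which exports sialic acid from lysosomes, differed by 0.38 and 0.49, and *GNE*, the first enzyme of sialic acid synthesis, by 0.31 and 0.30 with an adjusted p of 0.088 from limma. The arrays of *GNE* were tight, at 8.11 and 7.99 with Pao extract, against 7.72 and 7.76 with vehicle, in BPH-1 cells. The WPMY-1 levels were 8.42 and 8.41 with Pao extract, against 8.12 and 8.12 with vehicle.

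Lysosomal genes had small differences on 1 side. All 37 measured members of the list had a positive pooled difference (36 with each array centred on its median), from 0.01 to 0.63 with a median of 0.09, and 28 were higher in both lines, as were 5482 of all 22465 genes. Separate, higher arrays in both lines were found for 9 (against 3.98% of all genes), and an unadjusted p under 0.05 from limma for 12 (against 3.82% of all genes), though none passed adjustment in either fit. *NEU1*, a lysosomal sialidase, read 6.86 and 6.70 with Pao extract, against 6.32 and 6.35 with vehicle, in BPH-1 cells, and 7.79 and 8.16 with Pao extract, against 6.94 and 7.38 with vehicle, in WPMY-1 cells. It separated in both lines and led the list at 0.63 (SE 0.12, adjusted p = 0.184 from limma and 0.0711 with the block). Acid ceramidase *ASAH1* (0.23 and 0.32), prosaposin *PSAP* (0.24 and 0.29) and the proton pump subunit *ATP6V1C1* (0.20 and 0.22) were also separate in both. In the promoters of 23 members the motif TCACGTGA, an E-box read by TFEB and TFE3, was in 5 (21.7%), namely those of *LAMP1*, *CTSA*, *GAA*, *MCOLN1* and *ATP6V0D1*, and in 1.21% of promoters of tested genes. That share describes a list drawn by function and not the response to Pao extract. *ATP6V0D1*, a proton pump subunit with separate arrays in both lines (0.11 and 0.32), is shown as the 1 of the 5 with such arrays, with *INSIG1* as the 1 of the genes past 1.4-fold in both lines with the motif, and the motif in capitals.
ATP6V0D1: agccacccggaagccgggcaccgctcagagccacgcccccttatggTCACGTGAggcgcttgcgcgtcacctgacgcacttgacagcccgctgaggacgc
INSIG1: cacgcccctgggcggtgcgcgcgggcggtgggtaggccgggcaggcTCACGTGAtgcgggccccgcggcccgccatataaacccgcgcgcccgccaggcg
They lie at chr16:67481164-67481263 on the minus strand and chr7:155297776-155297875 on the plus strand.

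On the autophagy list 8 of 31 measured genes had higher, separate arrays in both lines (6 with each array centred on its median), against 3.98% of all genes, and none lower, with a median of 0.07. *WIPI1*, which binds the lipid of forming autophagosomes, read 6.68 and 6.68 with Pao extract, against 6.03 and 6.37 with vehicle, in BPH-1 cells. WPMY-1 cells gave 8.40 and 8.50 with Pao extract, against 7.44 and 7.67 with vehicle. Its pooled difference was 0.69 (SE 0.10, adjusted p = 0.088 from limma and 0.0867 with the block). The cargo receptor *SQSTM1* differed by 0.37 and 0.44, *GABARAPL1* by 0.44 and 0.36, and *MAP1LC3B* by 0.26 and 0.22. Of 20 FOXO targets, 5 were separate and higher in both lines, against 3.98% of all genes, and none lower. With each array centred on its median the count was 3, and only 12 of the 20 lay above background in both lines. Among the 5 were *KLHL24* and the insulin receptor substrate *IRS2*, which differed by 0.36 and 0.35 (adjusted p = 0.105 from limma and 0.109 with the block).

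Of 32 genes of ATF4 and the integrated stress response, 10 were higher with separate arrays in both lines (6 with each array centred on its median), against 3.98% of all genes, and none lower. An unadjusted p under 0.05 from limma was met by 8, against 3.82% of all genes, and the median was 0.10. *DDIT3*, the stress factor CHOP, read 5.13 and 5.31 with Pao extract, against 4.84 and 4.74 with vehicle, in BPH-1 cells, all below background, and 6.02 and 6.24 with Pao extract, against 5.37 and 5.87 with vehicle, in WPMY-1 cells. *GDF15*, a stress-induced cytokine, differed by 0.70 and 0.46 (adjusted p = 0.472 from limma and 0.0524 with the block), and *EIF2AK3*, the kinase PERK, by 0.26 and 0.33 (adjusted p = 0.111 from limma and 0.0867 with the block). Among chaperones and helpers of the endoplasmic reticulum, 1 of 18 was higher with separate arrays and 0 were lower, which became 0 higher and 1 lower with each array centred on its median. Among 33 interferon-stimulated genes, 7 were separate and higher (5 with each array centred on its median), against the same 3.98%, and none lower, with a median of 0.12. The 7 included *IFIT3* at 0.63 and 0.31 and *HERC5* at 0.56 and 0.45, though *HERC5* lay below background in WPMY-1 cells. Only 20 of the 33 lay above background in both lines. Of 23 NRF2 targets, 4 were separate and higher (against 3.98% of all genes), led by *PGD* of the pentose phosphate pathway (0.33 and 0.52).

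**Figure D3:**
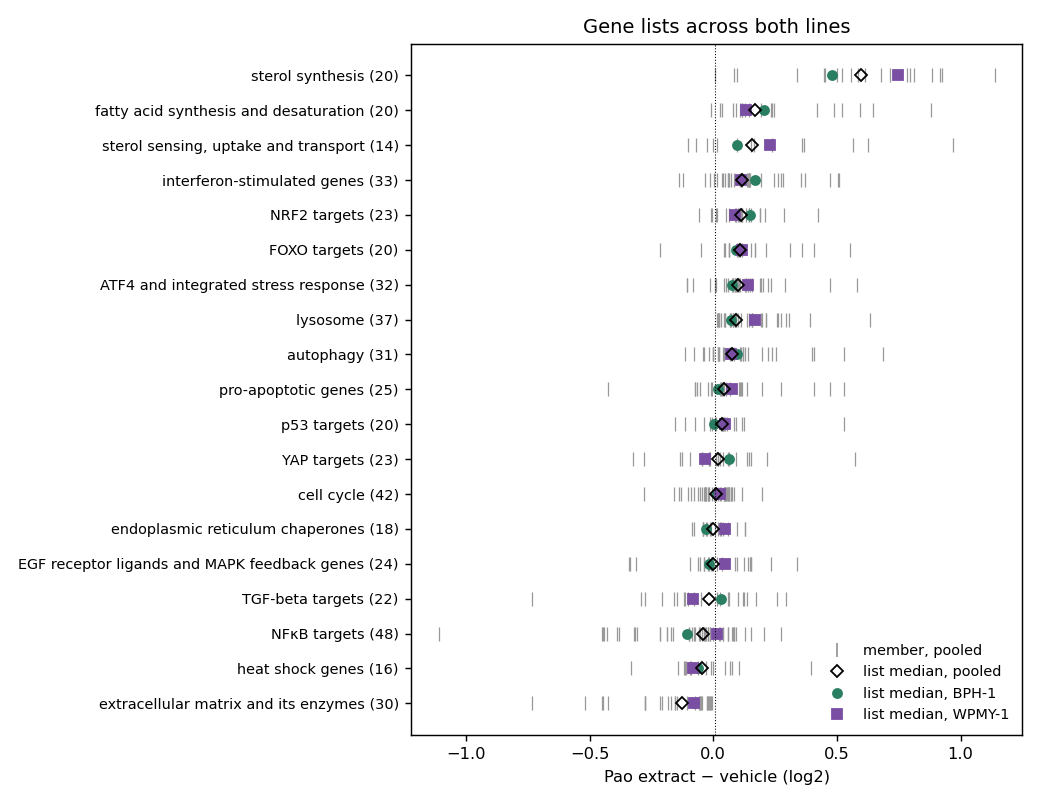
Pooled difference between Pao extract and vehicle (log2) for every measured member of 19 gene lists (grey ticks, number of members in brackets), with the list median pooled (diamond), in BPH-1 (circle) and in WPMY-1 cells (square), and a dotted line at the median of all genes. Sterol synthesis stands apart with a pooled median of 0.60, while every tick of the extracellular matrix list lies left of 0.

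Fewer genes were lower. *HAS2*, which makes hyaluronan, read 9.02 and 8.40 with Pao extract, against 10.14 and 9.35 with vehicle, in BPH-1 cells, and 8.72 and 8.93 with Pao extract, against 9.78 and 10.22 with vehicle, in WPMY-1 cells. The groups did not overlap in either line, and the difference, -1.04 and -1.18, was of similar size in both, with a pooled value of -1.11 (SE 0.19, adjusted p = 0.116 from limma and 0.00594 with the block). It was the only gene at least 1.4-fold lower in both lines, and at 1.3-fold *CXCL6*, *THBS1*, *TNC* and *ALDH1A3* joined it. *NRG1*, a ligand of the ERBB receptors, read 8.93 and 8.60 with Pao extract, against 9.32 and 8.96 with vehicle, in BPH-1 cells, and 6.74 and 6.61 with Pao extract, against 7.23 and 7.14 with vehicle, in WPMY-1 cells, where the 2 groups were further apart. Its pooled difference was -0.44 (SE 0.10, adjusted p = 0.234 from limma and 0.0407 with the block). *ALDH1A3*, a retinal dehydrogenase, overlapped between the groups of BPH-1 cells, at 8.79 and 9.56 with Pao extract, against 9.31 and 9.97 with vehicle, and read 8.84 and 8.85 with Pao extract, against 9.23 and 9.36 with vehicle, in WPMY-1 cells. Its adjusted p was 0.631 from limma and 0.0309 with the block, and repeat 2 was the higher array of both BPH-1 groups. At 1.2-fold and above in both lines, above background and with separate arrays, 12 genes were lower, among them the connexin *GJA1* (-0.48 and -0.31), the protease *CTSC* (-0.35 and -0.30) and the protein C receptor *PROCR* (-0.29 and -0.30), and these 3 did not pass adjustment in either fit.

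**Figure D4:**
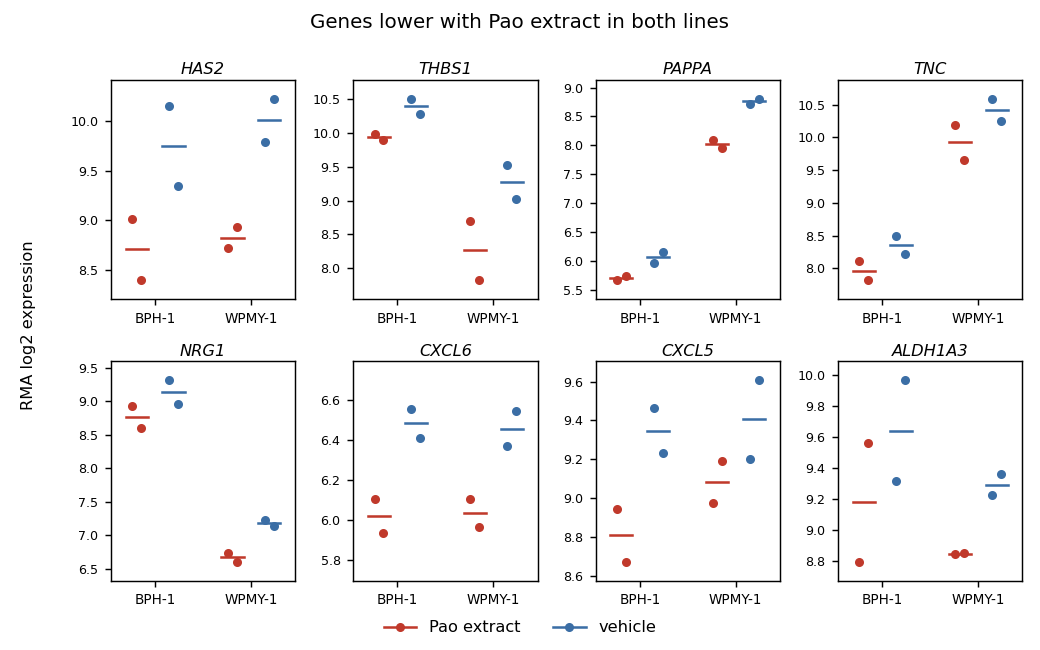
RMA log2 level on each of the 8 arrays for 8 genes lower with Pao extract in both lines, with Pao extract in red left of vehicle in blue for each line and a bar at each group mean. Red lies below blue without overlap in each line for every gene shown except *ALDH1A3* in BPH-1 cells.

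Matrix genes had small differences on the lower side. All 30 measured members of the extracellular matrix list had a negative pooled difference (27 after a further quantile normalization), from -0.73 to -0.0048 with a median of -0.13. In both lines, 19 were lower, as were 4849 of all 22465 genes. Separate, lower arrays in both were found for 7, against 2.6% of all genes, but for 5 with each array centred on its median and 4 after the further quantile normalization, and none passed adjustment in either fit. Only 19 of the 30 lay above background in both lines. Of 17 stromal markers, some of them matrix genes, 4 were lower with separate arrays in both lines, against 2.6% of all genes, and 0 higher. With each array centred on its median, 2 were lower. The median of these markers was -0.10, only 9 of the 17 lay above background in both lines, and their part in the result was not tested. *THBS1*, thrombospondin 1, read 9.98 and 9.89 with Pao extract, against 10.50 and 10.27 with vehicle, in BPH-1 cells. The WPMY-1 levels were 8.70 and 7.82 with Pao extract, against 9.53 and 9.03 with vehicle. The arrays separated in both lines, with differences of -0.45 and -1.01. *TNC*, tenascin C, differed by -0.39 and -0.50 (adjusted p = 0.473 from limma and 0.0524 with the block), and the collagen gene *COL1A1* by -0.12 and -0.43. *PAPPA*, which cleaves binding proteins of insulin-like growth factors, read 5.67 and 5.75 with Pao extract, against 5.97 and 6.17 with vehicle, in BPH-1 cells, and 8.10 and 7.96 with Pao extract, against 8.72 and 8.81 with vehicle, in WPMY-1 cells, and had an adjusted p of 0.0912 from limma (0.112 with the block).

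Of 48 measured NFκB targets, 15 were lower in both lines and 7 higher in both, as were 4849 and 5482 of all 22465 genes. With separate arrays in both, 8 were lower, against 2.6% of all genes, namely *CXCL1*, *CXCL2*, *CXCL3*, *CXCL5*, *CXCL6*, *CXCL8*, *HAS2* and *TNC*, and 1, *BCL2L1*, was higher, against 3.98%. After a further quantile normalization these counts were 5 lower and 0 higher. The list's median was -0.04 pooled, -0.11 for BPH-1 cells and 0.02 for WPMY-1 cells. Over all genes, the median was -0.01 for BPH-1 cells and 0.03 for WPMY-1 cells. The list's median thus differed in sign between BPH-1 and WPMY-1 cells, but lay below that of all genes in both. With each array centred on its median, the pooled median of the list was -0.06. Of its members, 11 were lower and 1 higher at an unadjusted p under 0.05 from limma, against 2.9% and 3.82% of all genes. Only 31 of the 48 lay above background in both lines. *CXCL6*, a neutrophil chemokine, read 6.10 and 5.93 with Pao extract, against 6.55 and 6.41 with vehicle, in BPH-1 cells, and 6.10 and 5.96 with Pao extract, against 6.37 and 6.54 with vehicle, in WPMY-1 cells. These nearly matched levels gave a difference of -0.46 and -0.42 and an adjusted p of 0.088 from limma (0.0673 with the block). *CXCL5* differed by -0.54 and -0.32 (adjusted p = 0.395 from limma and 0.0867 with the block). The motif GGNNTTTCC, as bound by NFκB, was in 18 of the 36 list promoters in the table and in 5.71% of promoters of tested genes. Since the list was drawn from known NFκB targets, this share describes the list and not the response to Pao extract. The windows of both chemokines, with the motif in capitals, were identical at 93 of 100 positions, and the genes are close relatives whose probes may share signal.
CXCL5: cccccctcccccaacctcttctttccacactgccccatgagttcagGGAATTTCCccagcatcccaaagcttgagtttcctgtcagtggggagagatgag
CXCL6: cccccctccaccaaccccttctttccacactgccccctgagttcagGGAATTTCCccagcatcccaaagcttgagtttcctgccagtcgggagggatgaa
They lie at chr4:73998714-73998813 on the minus strand and chr4:73836543-73836642 on the plus strand.

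How far a change seen in 1 line was met in the other was read from genes chosen by size in that line alone. Of 88 genes at least 1.4-fold higher in WPMY-1 cells, 70 were on the same side in BPH-1 cells and 54 (61.4%) had separate BPH-1 arrays, against 14.4% of all genes. Of the 27 at least 1.6-fold higher, 26 were on the same side and 23 separate. In the other direction of choice, 53 genes were at least 1.4-fold higher in BPH-1 cells, and 29 of them (54.7%) were separate in WPMY-1 cells, against 27.0% of all genes. Without the lipid lists the counts were 29 of 62 (46.8%, against 14.3%) for genes chosen in WPMY-1 cells and 14 of 38 (36.8%, against 26.9%) for genes chosen in BPH-1 cells. Of 142 genes at least 1.4-fold lower in WPMY-1 cells, 68 were on the same side in BPH-1 cells and 22 (15.5%) were separate, against 18.8% of all genes, and of 14 chosen in BPH-1 cells, 5 (35.7%) were separate in WPMY-1 cells, against 16.6%. With each array centred on its median, that last count was 4 of 13 (30.8%, against 25.9% of all genes). In the same scaling, the higher genes gave 42 of 61 (68.9%, against 17.5%) where chosen in WPMY-1 cells and 34 of 63 (54.0%, against 16.9%) where chosen in BPH-1 cells.

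**Figure D5:**
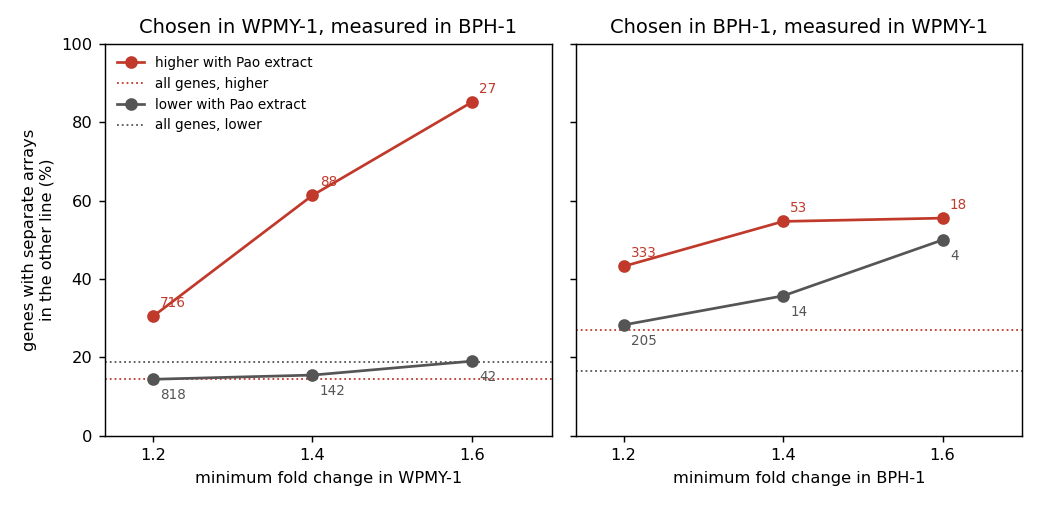
Share of genes (%) with separate arrays in the same direction in the other line, for genes chosen at a minimum fold change of 1.2, 1.4 or 1.6 in WPMY-1 (left) or BPH-1 cells (right), higher in red and lower in grey, with the number chosen beside each point and dotted lines at the share over all genes. In the left panel the red line climbs to 23 of 27 at 1.6-fold while the grey line stays near its dotted line, and the last grey point on the right rests on 4 genes.

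Over all genes, the differences in the 2 lines correlated with r = 0.06 across genes (0.14 across the 12338 above background), a description since genes are not independent. Separate arrays in both lines were found in the same direction for 894 genes higher (3.98%) and 584 lower (2.6%), and in opposite directions for 1707 (7.60%), of which 1237 were lower in BPH-1 and higher in WPMY-1 cells. The test for an unequal response between the lines called 0 genes (0%) at an adjusted p of 0.05 from limma, with 1017 higher and 585 lower in WPMY-1 cells at an unadjusted p under 0.05, and 0 with the block. *FBXO32*, a ubiquitin ligase subunit and FOXO target picked after its values were seen, was at 6.60 and 6.59 with Pao extract, against 5.57 and 5.61 with vehicle, in BPH-1 cells. WPMY-1 cells gave 8.03 and 7.58 with Pao extract, against 8.18 and 7.80 with vehicle. The BPH-1 groups lay far apart and the WPMY-1 groups overlapped, with differences of 1.00 and -0.19 (difference between the lines, unadjusted p = 0.000641 and adjusted p = 0.557 from limma). *MMP13* was lower in BPH-1 cells by a difference of -0.99 and differed by 0.09 in WPMY-1 cells, where it lay below background. Within the sterol list, *HSD17B7* (0.63 and 1.2) and *MVD* (0.49 and 1.14) had an unadjusted p of 0.0128 and 0.0111 from limma for the difference between the lines, against 0.741 for *HMGCS1* (1.09 and 1.19) and 0.413 for *MSMO1* (0.84 and 1.01).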

How the data were processed

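Total RNA of BPH-1 and WPMY-1 cells was measured on Affymetrix human transcriptome arrays. The authors deposited log2 values after RMA, which the submitters' processing notes name without a version, for 67528 probe sets on 8 arrays. RMA subtracts background, equalises array distributions and summarises probes, so the values were used as given. The genome build behind the probe sets and the aligner are not given in the sources used here. The labels give 48 h of treatment and the array methods of the study a shorter exposure, and the labels' time was used.

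Of the probe sets, 23781 carried 1 gene symbol in the platform annotation, 1543 carried several and were not named, and 42204 were not listed. Of the named ones, 21497 matched RefSeq genes of GRCh38.p14. Where a gene had more than 1 probe set (479 genes), that of the highest mean was kept, and 35 genes shared all 8 values with another gene. Array medians over genes were 5.62 to 5.79.

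The pooled effect was fitted with limma 3.58.1 in R 4.3.3 with line and treatment as terms, and Benjamini-Hochberg adjustment was made over all 22465 genes. An alternative fit added the repeat number within each line as a block. The labels number the repeats, and same-numbered arrays deviated together (r = 0.50 over genes in BPH-1 cells, and 0.43 over genes in WPMY-1 cells), which is where the pairing comes from. Differences between repeat 1 and repeat 2 also correlated between the lines (r = 0.34 over genes). What a repeat number stands for is not stated. The difference between the lines was tested in a model with 1 mean per group. Scripts were tested on simulated data.

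The members and the gene lists were chosen with earlier results of these data known. Named genes were, by rule, those past the pooled test with the same direction, separate arrays and levels above background in both lines, filled up to 10 in each direction by size from genes with an unadjusted p under 0.05, with all genes past 1.4-fold in both lines and up to 4 members of each of 26 gene lists. Genes called with the block or with an adjusted p under 0.10, and others named singly, were picked after their values were seen. Alternatives were other scalings, variance models, probe set choices, filters on dim genes, fold thresholds, the methods' t-test and leaving out each array. Promoters came from RefSeq.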

Additional observations from a re-analysis of the deposited data

How the results depend on the processing

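With 2 arrays a group, calls depended on how the spread was modelled. The pooled comparison called 0 genes in either direction as fitted, after a further quantile normalization, centring, a trended variance, no moderation, the methods' t-test (311 higher and 202 lower unadjusted) and other probe set choices. Counts of higher and lower genes were 7 and 0 with 1 mean per group averaged over the lines, 18 and 5 with array weights, 23 and 2 without dim genes, 19 and 3 with the replicate block, 38 and 6 with it as a random block (consensus correlation 0.27), and 66 and 35 with the block and a separate effect in each line, of which 65 and 29 moved the same way in both lines. Leaving out 1 array gave 0 to 16 higher and 0 lower, with 16 without BPH-1 Pao extract replicate 2. Among alternatives added after the data were seen, the counts were 29 and 3 over genes above background in both lines, 75 and 21 with the block over those genes, 18 and 2 with the block and centring, and 15 and 1 with the block and a further quantile normalization. The block changed no other call. The counts of genes that moved the same way in both lines were the same as these unless stated, and why the fits differ was not tested.

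Past 1.4-fold in both lines, 2 genes were lower with the lowest-mean probe set, and 13 to 25 were higher and 1 to 7 lower without 1 array. The count was 39 higher and 5 lower at 1.3-fold and 11 higher at 1.5-fold. Separate arrays were found for 520 higher and 358 lower genes without dim genes, for 538 and 369 above background in both lines, and for 1207 to 2378 and 849 to 1871 without 1 array, where fewer arrays have to separate. Since no gene was called as fitted, none could lose a call. Over 14 fits of all 8 arrays, *MSMO1* passed in 6, *HMGCS1* in 5, *HAS2* in 4, and *SQLE* and *ALDH1A3* in 2. Of 138 named genes, 2 turned sign. *DNAJB11* was at 0.047 with the lowest-mean probe set, against -0.08 in the fit of all arrays, and *CENPE* was at -0.28 to 0.075 without 1 array, with 0.075 without WPMY-1 vehicle replicate 1 and 0.021 without WPMY-1 Pao extract replicate 2, against -0.14. Neither was called. Signal near background limits *ANKRD1*, *TP53INP1*, *DDIT3* and *HERC5* in 1 line.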

Other observations

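Counts of members with separate arrays in both lines are given here for other lists, beside 3.98% of all genes higher and 2.6% lower. Of 42 cell cycle genes, 1 was higher and 1, *CDC20* (-0.13 and -0.14), lower, and the pooled median was 0.01. Of 20 p53 targets, 2 were higher and 0 lower, and of 25 pro-apoptotic genes, 2 were higher, *DDIT3* and *TP53INP1*, and 0 lower. Heat shock genes had 1 of 16 higher, *HSPB8* (0.29 and 0.50), and 1 lower, *STIP1* (-0.13 and -0.09). Of 24 EGF receptor ligands and feedback genes, 2 were higher and 1 lower, *HBEGF*, whose difference of -0.57 in BPH-1 cells stood beside -0.05 in WPMY-1 cells. LXR targets, which respond to a surplus of sterol, had 1 of 9 higher, *SMPDL3A* (0.06 and 0.24), and 0 lower. Among 28 genes of glycolysis and hypoxia, 2 were higher and 1 lower, with *ALDOC* at 0.42 in both lines. Of 22 TGF-beta targets, 1 was higher, *ID3* (0.35 and 0.16), and 3 lower, *COL1A1*, *THBS1* and the actin-binding *TAGLN* (-0.18 and -0.41). Of 12 hyaluronan genes, 0 were higher and 2 lower, *HAS2* and the receptor *CD44* (-0.12 and -0.10). Of 23 YAP targets, 1 was higher, *ANKRD1*, and of 9 AhR targets, 1, *NQO1* (0.18 and 0.05), with 0 lower in both lists. Of 8 anti-apoptotic genes, 1 was higher and 0 lower, and of 173 C/D small nucleolar RNAs, 4 were higher and 2 lower. Of 85 H/ACA and Cajal body small RNAs, 2 were higher and 3 lower, and *SNORA2A*, with differences of 1.35 and 0.14, had arrays that overlapped between the groups in WPMY-1 cells.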
